A study of Homo sapiens with 4 samples.

Results

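The cadherin and protocadherin genes of H1299 cells were measured in 2 RNA-seq libraries of TTC28-KO cells and 2 of WT cells. H1299 is an established human line of non-small-cell lung carcinoma. In the KO cells TTC28, which encodes a tetratricopeptide repeat protein, had been targeted with CRISPR/Cas9, and the labels give both genotypes as untreated. No label says whether the KO cells were 1 clone or a pool, or whether libraries of a genotype came from separate cultures, so the p-values measure only the spread between these libraries. The genes are the protein-coding ones whose symbol is CDH or CDHR followed by a digit or starts with PCDH, which were 94 of the 58735 genes in the table. They comprise 18 classical cadherins (5 of type I and 13 of type II), 5 other CDH genes, 5 CDHR genes, 53 clustered protocadherins on chromosome 5, and 5 delta1, 5 delta2 and 3 other protocadherins.

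Cadherins are calcium-dependent adhesion proteins of the cell surface. The classical ones hold neighbouring cells together at adherens junctions, where their cytoplasmic tails bind catenins, and carcinoma cells of mesenchymal kind often carry N-cadherin in place of E-cadherin. The clustered protocadherins are best known from neurons: each alpha and gamma gene joins its own large variable exon, with its own promoter, to constant exons shared by its cluster, while the beta genes have no constant exons. CTCF, cohesin and distant enhancers choose among these promoters, most of which carry a conserved element with a CGCT core, and DNA methylation and SMCHD1 keep others silent.

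The libraries held 28885443 and 25120500 counts in TTC28-KO cells, against 25808423 and 27043491 in WT cells. TTC28 itself stood at 2.96 and 2.99 FPKM (fragments per unit of gene length and of library size) in KO libraries, against 4.88 and 5.44 in WT libraries, a log2 fold change of -0.80 (SE 0.0772, edgeR adjusted p = 8.13e-07). Across all 16908 tested genes 3765 were higher and 3900 lower in KO cells at an adjusted p under 0.05, with a median log2 fold change of 0.00. Of the epithelial markers KRT8, KRT18 and CLDN4 rose, ESRP1 did not pass the test, and EPCAM and KRT19 had too few counts. The summed level of those 6 markers was 214 and 201 FPKM in KO libraries and 169 and 163 FPKM in WT libraries. KRT18 held most of that sum, at 170 and 161 FPKM in KO and 144 and 138 FPKM in WT libraries. Of 5 mesenchymal markers VIM rose, FN1 and SNAI2 fell, and ZEB1 and SPARC did not pass. Their sum was 372 and 359 FPKM in KO and 324 and 308 FPKM in WT libraries. VIM alone made up most of it, with 366 and 353 FPKM in KO and 316 and 300 FPKM in WT libraries. Markers of other cells summed to 0.497 and 0.533 FPKM in KO and 0.224 and 0.262 FPKM in WT libraries, with PTPRC at 2 and COL1A2 at 3 counts over all 4 libraries and COL1A1 higher in KO cells. The part of these marker differences in the values below was not tested.

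Of the 94 genes, with PCDH11Y left out, 83 had a count in at least 1 library. The 40 counts over the 4 libraries needed for the test were reached by 53. In TTC28-KO cells 16 of the 53 rose, 12 fell and 25 did not pass the threshold. Among all tested genes the test called 22.3% higher, 23.1% lower and 45.3% in either direction, against 52.8% of the 53. Most of the 53 have few counts, and among all genes with 40 to 1200 summed counts 31.9% were called, against 54.3% of the 46 members in that range. Changes of at least 2-fold were called in 19 of the 53, against 8.44% of all tested genes. All 19 are among the 46 members with 40 to 1200 counts, and no share matched for count was taken. Some passed the filter mainly through 1 genotype, as PCDH15 with 64 counts in KO and 3 in WT libraries and PCDHA2 with 4 and 52. No overlap between the KO and WT libraries was seen in 38 of the 53, against 72.8% of all tested genes. The 41 untested genes include those without any count and PCDH11Y, whose level is not given. Whether fewer cells express such a gene or each cell holds less of its RNA cannot be told apart in bulk libraries.

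**Figure D1:**
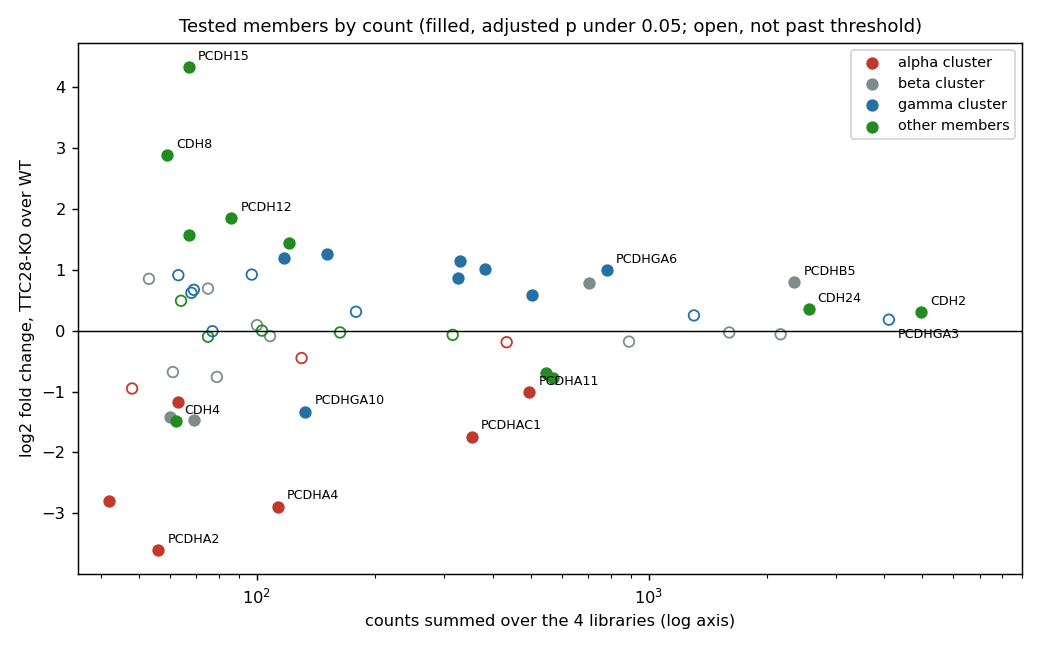
Log2 fold change of TTC28-KO over WT for the 53 tested genes against their counts summed over the 4 libraries (log axis), coloured by cluster, with filled points for an adjusted p under 0.05. The genes past 2-fold have few counts, from PCDH15 at 4.33 down to PCDHA2 at -3.60, while CDH2, PCDHGA3 and CDH24 at the right lie between 0.18 and 0.35.

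Only 10 of the 94 genes averaged at least 1 FPKM over the 4 libraries. In descending order these were CDH2 (9.51 FPKM), PCDHGA3 (7.96), PCDHB5 (6.55), CDH24 (6.47), PCDHB6 (6.29), PCDHB2 (3.69), PCDHGC3 (2.27), PCDHB11 (2.01), PCDHB14 (1.39) and PCDHGB2 (1.00). The classical cadherins thus contribute 2 genes to that group and the clustered protocadherins the other 8, none of them from the alpha cluster. All 12 genes that fell, and 11 of the 16 that rose, averaged under 1 FPKM.

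The classical cadherins with appreciable RNA were both modestly higher in TTC28-KO cells. CDH2, which encodes N-cadherin and lies at chr18:27950966-28177446 (hg38, minus strand), had 1434 and 1283 counts in KO libraries, against 1097 and 1155 in WT libraries. Its level was 10.5 ± 0.154 FPKM in KO and 8.51 ± 0.0764 FPKM in WT cells (SD, n = 2 each), and it rose by 0.30 on the log2 scale (SE 0.0734, edgeR adjusted p = 0.00359). CDH24, a type II cadherin that binds beta-catenin, encoded at chr14:23047062-23057538 on the minus strand, had 750 and 671 counts in KO libraries and 542 and 597 in WT libraries. It stood at 7.25 ± 0.106 FPKM in KO and 5.68 ± 0.232 FPKM in WT cells (SD, n = 2 each), a rise of 0.35 (SE 0.0878, edgeR adjusted p = 0.00432). For both genes the KO libraries lay above the WT libraries without overlap. When libraries were scaled by their summed counts per length, which moved the median of all genes by -0.16, CDH2 and CDH24 were at 0.14 and 0.19 and no longer passed. CDH24 also lost its call without WT replicate 1.

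The other classical cadherins were rare. CDH8, a type II cadherin of the nervous system encoded at chr16:61647242-62037035, had 26 and 26 counts in KO libraries, against 5 and 2 in WT libraries. The ratio of its summed counts was 7.57 (95% exact interval 3.43 to 19.8, counting error only), and it rose by 2.88 on the log2 scale (SE 0.544, edgeR adjusted p = 0.000479). CDH8 lost its call with limma on log2(FPKM + 1). CDH4, which encodes R-cadherin, had 12 and 4 counts in KO libraries and 24 and 22 in WT libraries, and it fell by 1.49 (SE 0.491, edgeR adjusted p = 0.0212). The call of CDH4 was lost without KO replicate 2, without WT replicate 1, with DESeq2 and with limma on log2(FPKM + 0.1) or log2(FPKM + 1). CDH15, the M-cadherin of muscle, did not pass, with 25 and 11 counts in KO against 23 and 16 in WT libraries.

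E-cadherin RNA was at the limit of detection in both genotypes. CDH1, which encodes it, had no count in either KO library and 0 and 1 in the WT libraries. CDH3, which encodes P-cadherin of basal epithelium, had 1 and 1 counts in KO against 6 and 3 in WT libraries, a ratio of 0.226 with an interval of 0.0238 to 1.09. VE-cadherin of endothelium, from CDH5, had 2 and 2 counts in KO and 0 and 2 in WT libraries. CDH11, the cadherin of osteoblasts and stromal fibroblasts, had no count in any library, which allows up to 0.106 and 0.122 CPM (counts scaled to library size) in the KO libraries and 0.114 and 0.109 in the WT libraries. CDH6, CDH9, CDH10, CDH12 and CDH19 likewise had none. The type II genes CDH7, CDH18, CDH20 and CDH22 had 1 to 10 counts over the 4 libraries. The 10 counts of CDH18 were all in KO libraries, with 3 and 7, against 0 and 0 in WT libraries, below the minimum for the test; with no filter on low counts it passed. Among the other CDH genes the lipid-anchored T-cadherin CDH13 had 1 and 0 counts in KO and 1 and 6 in WT libraries. CDH26 had 3 and 1 counts in KO and 1 and 1 in WT libraries, CDH17 and CDH23 had 3 and 18 over all 4 libraries, and CDH16 had none.

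**Figure D2:**
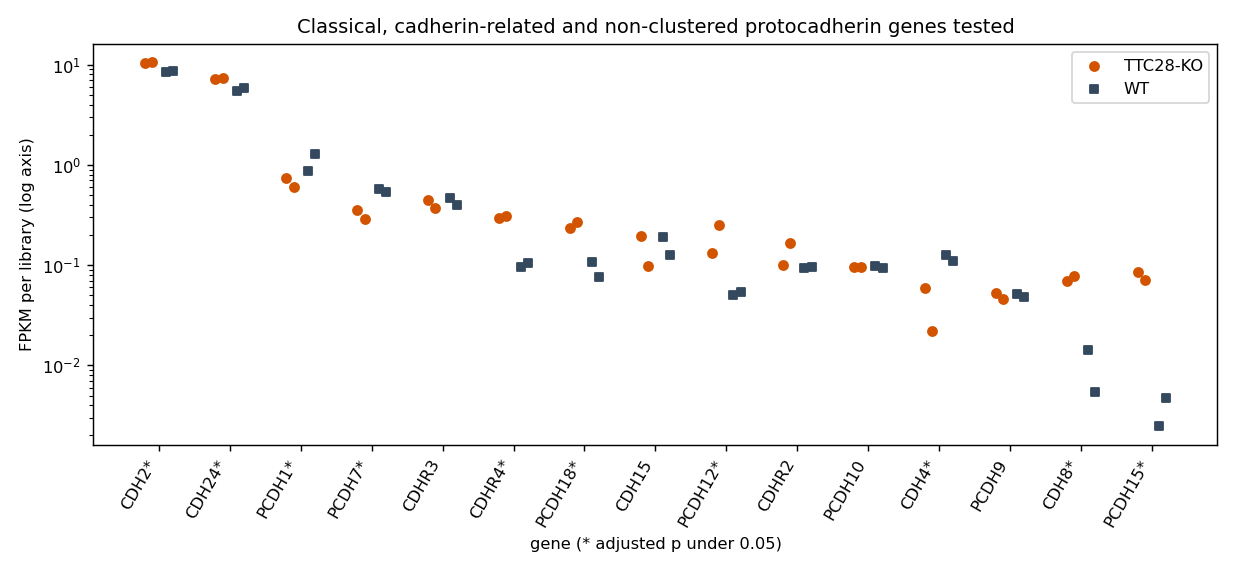
FPKM of each library (log axis) for the 15 tested genes outside the chromosome 5 clusters, with TTC28-KO libraries as circles left of WT libraries as squares and an asterisk for an adjusted p under 0.05. CDH2 and CDH24 are the only ones above 5 FPKM, and the KO and WT libraries of CDH8 and PCDH15 lie farthest apart.

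The summed RNA of the 3 protocadherin clusters on chromosome 5 differed in direction between genotypes. The genes span 140786136 to 141512981 (hg38) on the plus strand, in the order alpha, beta, gamma. Counts summed over the 15 alpha genes were 294 and 290 in KO libraries, against 525 and 734 in WT libraries. Scaled by library size with TMM factors this gave 11.1 ± 0.931 CPM in KO and 23.3 ± 4.70 in WT cells (SD, n = 2 each), a ratio of 0.476. The 16 beta genes summed to 84.5 ± 5.37 CPM in KO and 72.9 ± 1.40 in WT cells, a ratio of 1.16. The 22 gamma genes summed to 94.9 ± 3.18 CPM in KO and 71.2 ± 5.74 in WT cells, a ratio of 1.33. Within each library, which cancels its scaling, alpha counts were 11.3% and 12.1% of gamma counts in KO libraries and 29.7% and 35.4% in WT libraries. KO and WT libraries did not overlap in any of these sums. With 2 libraries against 2 an exact permutation test cannot give p under 0.333, so the sums were not tested.

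**Figure D3:**
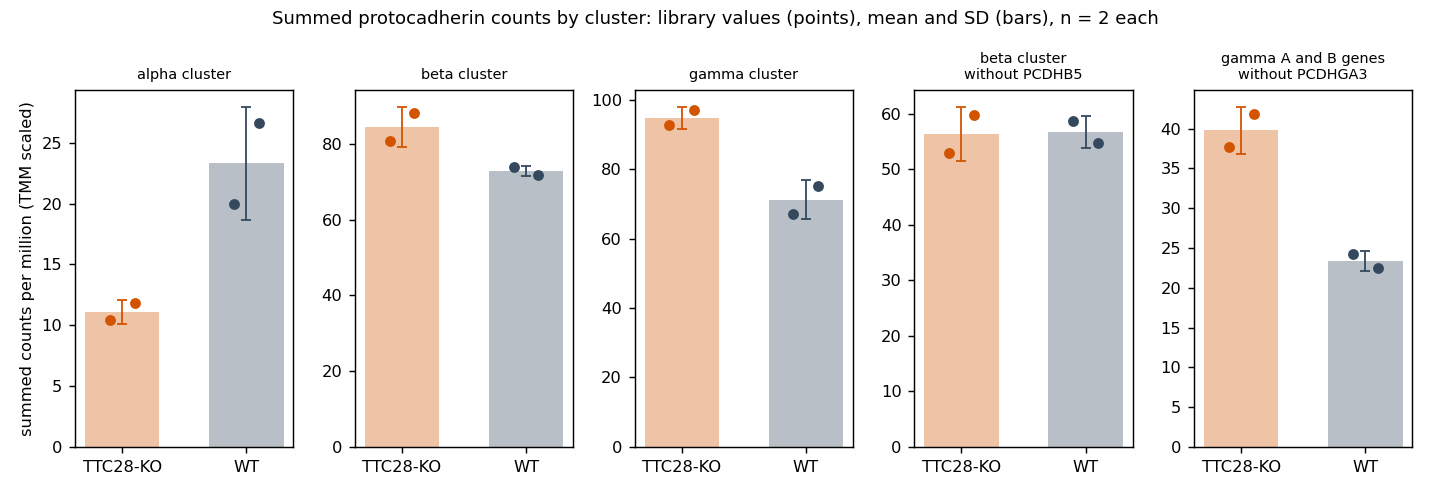
Summed CPM (TMM scaled) of the protocadherin clusters in TTC28-KO (orange, left) and WT (dark, right) cells, with library values as points and the mean and SD as bars (n = 2 each), each panel with its own axis from 0. The alpha sum is 11.1 in KO and 23.3 in WT cells, the gamma sum is 94.9 in KO and 71.2 in WT cells, and the beta sum without PCDHB5 is 56.4 in KO and 56.8 in WT cells.

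Single genes carry a large part of the beta and gamma sums. PCDHB5 took 34.4% and 32.2% of beta counts in KO libraries, against 20.3% and 23.9% in WT libraries. Without it the beta sum was 56.4 ± 4.93 CPM in KO and 56.8 ± 2.93 in WT cells, a ratio of 0.994. PCDHGA3 took 44.0% and 42.2% of gamma counts in KO and 48.1% and 52.7% in WT libraries. The gamma A and B genes without PCDHGA3 summed to 39.8 ± 2.97 CPM in KO and 23.4 ± 1.31 in WT cells, a ratio of 1.70. The 95% Wilson intervals, which cover counting error only, reached from 30.2 to 36.4% in KO and from 18.6 to 25.8% in WT libraries for PCDHB5. For PCDHGA3 they reached from 40.3 to 45.9% in KO and from 45.8 to 54.8% in WT libraries.

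How reads of shared exons were credited bears on each of these genes. In GENCODE release 29, with which the table's coordinates match for all 94 genes, bases shared with other genes of the cluster, constant exons among them, make up 19.2 to 56.6% of the exonic bases of an alpha gene (median 46.5%) and 27.6 to 64.4% of a gamma gene (median 43.8%), and beta genes share none. Runs of 50 bases repeated elsewhere in the clusters cover 0 to 45.7% of a beta gene, with a median of 13.5%. How the authors' counting treated such reads is not stated in the sources used. PCDHA1, whose annotation holds the alpha constant exons, had 2 and 0 counts in KO and 4 and 6 in WT libraries. How reads of those exons were credited was not tested.

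Most tested alpha genes fell in TTC28-KO cells. Of 15 alpha genes 9 were tested, of which 6 fell, none rose and 3 did not pass, with a median log2 fold change of -1.17 against 0.00 over all tested genes. All 9 estimates were negative. The called share of 66.7% stands against 45.3% of all tested genes and 31.9% of those with 40 to 1200 counts. The variable-exon promoters are shown because most of them carry the conserved element; whether it goes with the response was not tested. In the windows of 30 bases below, from RefSeq on GRCh38.p14 and written 5′ to 3′ on the plus strand, capitals mark the letters ATGTCGCT, which hold the CGCT core. PCDHA2, PCDHA4 and PCDHA10 fell, and PCDHA5 and PCDHA12 did not pass.
PCDHA2: tagccacatgATGTCGCTgtccaccataga
PCDHA4: gagccacatgATGTCGCTctttaccacaaa
PCDHA10: aagccaccggATGTCGCTgtcgtccacaaa
PCDHA5: catccacatgATGTCGCTggacaccggaag
PCDHA12: cagtcacatgATGTCGCTctacactcagaa
The windows lie at chr5:140794783-140794812 for PCDHA2, chr5:140806981-140807010 for PCDHA4, chr5:140855843-140855872 for PCDHA10, chr5:140821544-140821573 for PCDHA5 and chr5:140875246-140875275 for PCDHA12. The capitals begin 44 to 77 bases before the RefSeq start site in these 5 genes.

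On both strands ATGTCGCT was found in 9 of the 13 alpha promoters with an entry, in none of 14 beta and none of 20 gamma promoters, and in 0.234% of all 35116 promoter windows of 300 bases. Of those 9 alpha genes 3 fell, 2 did not pass and 4 were not tested. PCDHA11 and PCDHAC1, which fell, and PCDHAC2, which did not pass, have no match in these windows. The motif spellings were chosen after the promoter sequences had been seen, and a match is a description of letters. The counted PCDHA4 gene starts at 140806929 in GENCODE, before the capitals, while RefSeq places its start later. The 250 bases before the RefSeq start site of PCDHA4, at chr5:140806818-140807067 on the plus strand, show the element in its surroundings, again with ATGTCGCT in capitals.
PCDHA4 upstream: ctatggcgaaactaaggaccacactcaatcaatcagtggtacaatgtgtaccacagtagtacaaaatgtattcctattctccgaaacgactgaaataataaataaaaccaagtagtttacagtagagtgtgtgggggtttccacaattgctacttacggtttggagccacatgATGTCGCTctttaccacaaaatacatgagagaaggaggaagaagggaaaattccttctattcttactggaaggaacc

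Among the tested alpha genes, the strongest falls were those of 3 genes near the start of the cluster. PCDHA2 had 3 and 1 counts in KO libraries against 26 and 26 in WT libraries, a ratio of summed counts of 0.0784 (95% exact interval 0.0206 to 0.213), and fell by 3.60 on the log2 scale (SE 0.596, edgeR adjusted p = 0.000152). PCDHA3 had 3 and 2 counts in KO against 11 and 26 in WT libraries and fell by 2.80 (SE 0.666, edgeR adjusted p = 0.00289). PCDHA4 had 5 and 8 counts in KO against 44 and 56 in WT libraries, a ratio of 0.132 (0.0682 to 0.237), and fell by 2.89 (SE 0.414, edgeR adjusted p = 4.04e-05). These 3 genes are neighbours on the chromosome, and no KO library reached a WT library in any of them.

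Further along, PCDHA10 and PCDHA11 fell by 1.17 and 1.01 on the log2 scale. PCDHA11, at 0.474 and 0.515 FPKM in KO and 0.747 and 1.23 FPKM in WT libraries, has the highest average level per length of the alpha genes. It had 83 and 79 counts in KO against 123 and 211 in WT libraries (edgeR adjusted p = 0.00153). PCDHAC1, a C-type gene near the end of the cluster, had 37 and 43 counts in KO against 133 and 141 in WT libraries and fell by 1.74 (SE 0.219, edgeR adjusted p = 1.17e-05). The neighbouring C-type gene PCDHAC2 had 111 and 90 counts in KO against 101 and 132 in WT libraries, at -0.19 (SE 0.188), and did not pass. PCDHAC2 held 37.8% and 31.0% of alpha counts in KO libraries, against 19.2% and 18.0% in WT libraries, with Wilson intervals from 26.0 to 43.4% in KO and from 15.4 to 22.8% in WT libraries. The 6 untested alpha genes had 12 to 37 counts each over the 4 libraries. Without WT replicate 2, the library with the most alpha counts, PCDHA3, PCDHA10 and PCDHA11 lost their calls and 3 alpha genes were called lower. PCDHA5 passed without WT replicate 1 and PCDHA12 without KO replicate 2. PCDHA10 lost its call without any of the 4 libraries and with DESeq2, and 15.1% of its exonic bases belong also to PCDHA14 on the same strand.

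Of 16 beta genes 13 were tested, of which 2 rose, 2 fell and 9 did not pass, and the median log2 fold change was -0.06. The called share of 30.8% was under the 45.3% of all tested genes and near the 31.9% of those with 40 to 1200 counts. Promoters of both directions carry the same element, whose letters GTGGCGCT are in capitals below. PCDHB5 and PCDHB14 rose, and PCDHB7 and PCDHB13 fell.
PCDHB5: aggacgcctgGTGGCGCTgcaggctaagag
PCDHB14: gagacacatgGTGGCGCTacaggataagac
PCDHB7: aaaacgcaagGTGGCGCTgctggctaaaaa
PCDHB13: aggacgcgtgGTGGCGCTgcaggataagaa
These windows lie at chr5:141135181-141135210 for PCDHB5, chr5:141223265-141223294 for PCDHB14, chr5:141172568-141172597 for PCDHB7 and chr5:141213867-141213896 for PCDHB13, all on the plus strand. The counted PCDHB14 gene starts at 141222932 in GENCODE, before its window, while RefSeq places its start later. GTGGCGCT was found on either strand in 13 of 14 beta promoters, all but that of PCDHB1, in none of the 13 alpha and 20 gamma promoters, and in 1.15% of all windows.

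PCDHB5 had 783 and 701 counts in KO libraries, against 395 and 474 in WT libraries. Its level was 8.33 ± 0.126 FPKM in KO and 4.77 ± 0.483 FPKM in WT cells (SD, n = 2 each), and it rose by 0.80 on the log2 scale (SE 0.0958, edgeR adjusted p = 7.07e-06). PCDHB14 had 207 and 235 counts in KO against 128 and 134 in WT libraries and rose by 0.79 (SE 0.161, edgeR adjusted p = 0.00092). In both genes the KO libraries stood clear of the WT libraries. PCDHB6, with 558 and 497 counts in KO against 580 and 537 in WT libraries, did not pass, at -0.06 (SE 0.0964). PCDHB2, with 380 and 405 counts in KO against 415 and 406 in WT libraries, was at -0.03 (SE 0.114). PCDHB11 had 209 and 204 counts in KO and 202 and 276 in WT libraries and did not pass either.

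The beta genes that fell are rare. PCDHB7 had 6 and 10 counts in KO against 17 and 27 in WT libraries and fell by 1.41 (SE 0.49, edgeR adjusted p = 0.0281). PCDHB13 had 10 and 8 counts in KO against 32 and 19 in WT libraries and fell by 1.47 (SE 0.463, edgeR adjusted p = 0.017). Of the untested genes, PCDHB8 had 1 and 1 counts in KO against 7 and 10 in WT libraries, a ratio of 0.12 with an interval of 0.0134 to 0.505. PCDHB16, with 3 and 2 counts in KO against 16 and 7 in WT libraries, had a ratio of 0.222 (0.0658 to 0.596). PCDHB1 had a single count, in a WT library. PCDHB7 lost its call without KO replicate 1 or WT replicate 2, PCDHB13 without KO replicate 2 or WT replicate 1, and both with DESeq2. Antisense transcripts overlap 14.7% of the exonic bases of PCDHB5 and 15.0% of those of PCDHB2, and, as no source says whether counting used strand, their reads cannot be told apart.

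In the gamma cluster more genes rose than fell in TTC28-KO cells. Of 22 gamma genes 16 were tested, of which 7 rose, 1 fell and 8 did not pass, and their median log2 fold change was 0.77. The 8 of 16 called stand near the 45.3% of all tested genes and above the 31.9% of those with 40 to 1200 counts. The letters GNCGCTGTT, in capitals below, mark the element in gamma promoters. PCDHGA4, PCDHGA5 and PCDHGA6 rose, PCDHGA10 fell, and PCDHGA3 did not pass.
PCDHGA4: aagactctgggtGTCGCTGTTcaccaatca
PCDHGA5: aggactctgagtGTCGCTGTTgaccaaagt
PCDHGA6: aggactctaagcGTCGCTGTTgaccaacct
PCDHGA10: aggactctgagcGCCGCTGTTcacctacta
PCDHGA3: aggcctcttagtGTCGCTGTTgaccactca
The windows lie at chr5:141354962-141354991 for PCDHGA4, chr5:141364109-141364138 for PCDHGA5, chr5:141373837-141373866 for PCDHGA6, chr5:141412933-141412962 for PCDHGA10 and chr5:141343769-141343798 for PCDHGA3, on the plus strand. GNCGCTGTT was found on either strand in 13 of 20 gamma promoters, in 1 of 14 beta and none of 13 alpha promoters, and in 0.846% of all windows. Of those 13 gamma genes 6 rose, 1 fell, 4 did not pass and 2 were not tested, and PCDHGB3 rose without a match. The shorter core GNCGCT is in 44.0% of all windows. The 250 bases before the start site of PCDHGA4, at chr5:141354771-141355020 on the plus strand, are given for comparison with those of PCDHA4.
PCDHGA4 upstream: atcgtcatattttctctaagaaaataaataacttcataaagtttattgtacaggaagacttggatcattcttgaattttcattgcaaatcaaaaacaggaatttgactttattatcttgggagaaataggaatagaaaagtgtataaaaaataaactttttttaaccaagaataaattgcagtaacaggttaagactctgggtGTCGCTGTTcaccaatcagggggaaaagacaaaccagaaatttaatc

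The 7 genes that rose lie from PCDHGA2 to PCDHGA7 along the chromosome, a stretch of 9 gamma genes that also holds PCDHGA3 and PCDHGB1, which did not pass. The ends of that stretch are set by the calls themselves, so the absence of a rise outside it is no result. Outside it PCDHGB6 and PCDHGC5 did not pass at 0.92 (SE 0.398) and 0.91 (SE 0.456), within the range of those inside, and PCDHGB6 passed without KO replicate 1 and with no filter on low counts. PCDHGA6 had 260 and 257 counts in KO against 142 and 123 in WT libraries and rose by 0.99 (SE 0.15, edgeR adjusted p = 6.53e-05). PCDHGA4 had 112 and 114 counts in KO against 59 and 45 in WT libraries and rose by 1.15 (SE 0.225, edgeR adjusted p = 0.000655). PCDHGA5 had 140 and 114 counts in KO against 72 and 56 in WT libraries and rose by 1.01 (SE 0.207, edgeR adjusted p = 0.000935). In these 3 genes every KO library stood above every WT library. PCDHGB3 rose by 0.86, PCDHGB2 by 0.59, PCDHGA2 by 1.25 and PCDHGA7 by 1.19 on the log2 scale. PCDHGA2 and PCDHGA7, with 45 and 36 counts in the WT libraries together, lost their calls without WT replicate 2, PCDHGA2 also without KO replicate 1 and PCDHGA7 also with DESeq2. PCDHGB2 lost its call without KO replicate 2 and with DESeq2, under which 5 gamma genes were higher.

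PCDHGA3, the gamma gene with the highest level per length, had 1149 and 1012 counts in KO against 849 and 1094 in WT libraries. Its level was 8.48 ± 0.0303 FPKM in KO and 7.44 ± 1.13 FPKM in WT cells (SD, n = 2 each), at 0.18 (SE 0.0936, edgeR adjusted p = 0.125). Without WT replicate 2 it was at 0.34 and passed. PCDHGC3, a C-type gene, had 371 and 331 counts in KO against 254 and 349 in WT libraries and did not pass, at 0.25 (SE 0.129), but passed without WT replicate 2. The gamma gene that fell, PCDHGA10, had 17 and 20 counts in KO against 34 and 62 in WT libraries, at -1.33 (SE 0.364, edgeR adjusted p = 0.0072), and lost its call without WT replicate 2. The 6 untested gamma genes had 20 to 39 counts each over the 4 libraries.

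**Figure D4:**
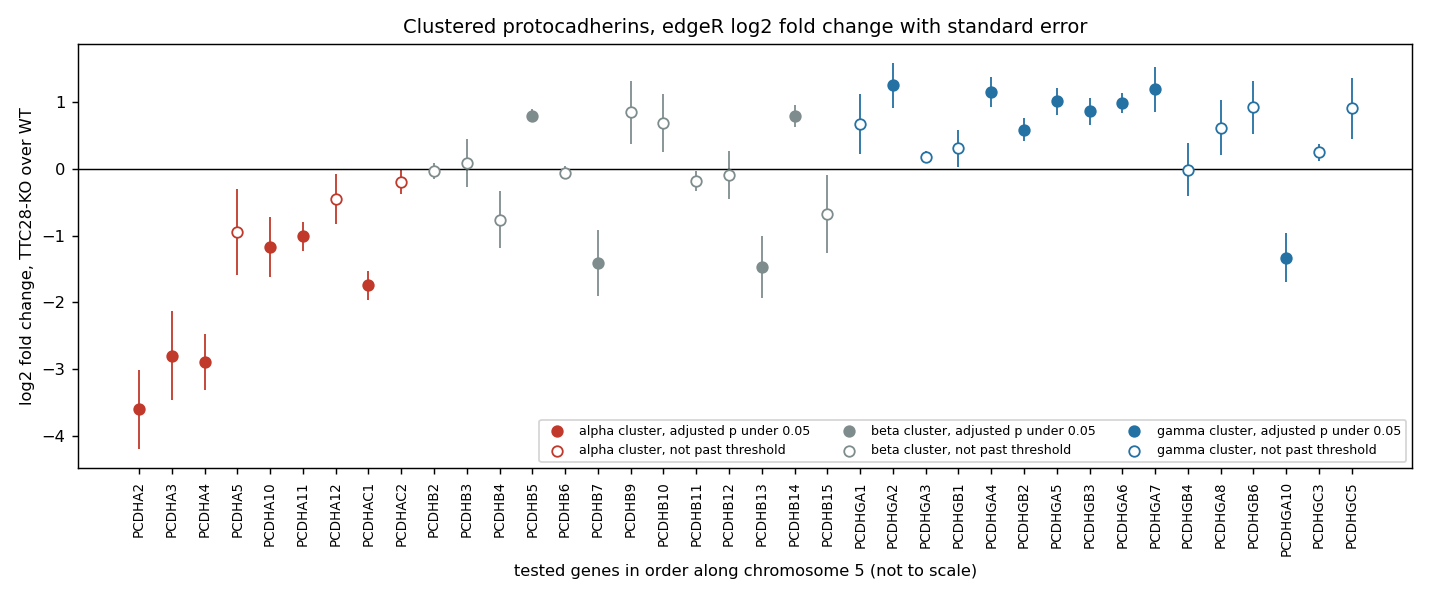
Log2 fold change of TTC28-KO over WT with its standard error for the 38 tested clustered protocadherins in chromosome order, filled for an adjusted p under 0.05. The alpha genes at the left lie between -3.60 and -0.19, the beta genes scatter about 0, and the filled points from PCDHGA2 to PCDHGA7 lie between 0.59 and 1.25.

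Set beside each other, 5 of 18 classical cadherins and 38 of 53 clustered protocadherins could be tested. Of the 5 classical genes 3 rose, 1 fell and 1 did not pass, with a median log2 fold change of 0.30. Of the 38 clustered genes 9 rose, 9 fell and 20 did not pass, with a median of 0.04 and a range from -3.60 to 1.25. The called shares were 80.0% of the 5 classical genes and 47.4% of the 38 clustered ones. Over all tested genes the share was 45.3%, near that of the clustered ones. Among genes with 40 to 1200 counts it was 31.9% over all genes and 51.5% over the 33 clustered ones. All 53 clustered genes had a count in some library, against 12 of the 18 classical ones. The 2 abundant classical genes differed between genotypes by 0.30 and 0.35 on the log2 scale, while the 6 clustered genes above 2 FPKM ranged from -0.18 for PCDHB11 to 0.80 for PCDHB5. Since genes of a cluster share regulation and sequence, they are not independent replicates, and the families were compared by counts and medians alone.

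Genes around the clusters had a median near that of all genes. Within 5 Mb of the clusters 85 other genes were tested, of which 14 were higher and 13 lower in KO cells, with a median log2 fold change of 0.04. Over all tested genes 22.3% were higher and 23.1% lower, a larger share in each direction. TAF7, a TFIID subunit gene that lies between the beta and gamma clusters, had 4639 and 4087 counts in KO against 4357 and 4598 in WT libraries, at -0.01. Taking away the median of the 50 nearest tested genes lowered the values of the clustered protocadherins by 0.04 to 0.06 and reversed no direction. For CDH24, whose neighbours on chromosome 14 had a median of -0.29, the value became 0.64.

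Of the protocadherins outside the clusters, which act mainly in neural and vascular tissues, 7 of 13 were tested, and 3 rose, 2 fell and 2 did not pass. All 7 have 40 to 1200 summed counts, a range in which 31.9% of all genes were called, against 45.3% of all tested genes. PCDH15, known from the tip links of inner ear hair cells and encoded at chr10:53802771-55627942, had 37 and 27 counts in KO against 1 and 2 in WT libraries, a ratio of 21.7 with a 95% exact interval of 7.11 to 108 (edgeR adjusted p = 2.8e-05). PCDH12, known from endothelium, had 25 and 42 counts in KO against 9 and 10 in WT libraries and rose by 1.85 (SE 0.452, edgeR adjusted p = 0.00349). PCDH18, of the delta2 group, had 44 and 44 counts in KO against 19 and 14 in WT libraries and rose by 1.44 (SE 0.345, edgeR adjusted p = 0.00302). The KO libraries of all 3 lay above the WT libraries, at no more than 0.269 FPKM. No overlap in either direction was seen in 72.8% of all tested genes. In the delta1 group, PCDH7 had 121 and 87 counts in KO against 183 and 180 in WT libraries and fell by 0.78 (SE 0.166, edgeR adjusted p = 0.00127). PCDH1, expressed in airway epithelium, had 121 and 86 counts in KO against 134 and 207 in WT libraries and fell by 0.69 (SE 0.199, edgeR adjusted p = 0.00994). PCDH9 and PCDH10 did not pass, at -0.03 and 0.00. PCDH8 and PCDH19 had 12 and 23 counts over the 4 libraries, and PCDH11X, PCDH17 and PCDH20 had none. PCDH11Y is among the 94 genes and its level is not given. PCDH12 lost its call without KO replicate 2 and PCDH1 without WT replicate 2. With limma on log2(FPKM + 1) PCDH1, PCDH12 and PCDH15 lost their calls, PCDH1 also on log2(FPKM + 0.1).

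Among the cadherin-related genes, CDHR4 had 26 and 24 counts in KO against 8 and 9 in WT libraries and rose by 1.57 (SE 0.436, edgeR adjusted p = 0.00804), a call lost without WT replicate 1 and with DESeq2. CDHR3, the rhinovirus C receptor of airway epithelium, had 89 and 64 counts in KO against 86 and 77 in WT libraries and did not pass. CDHR2, of the intestinal brush border, had 15 and 22 counts in KO against 13 and 14 in WT libraries and did not pass either. CDHR1 and CDHR5 had 9 and 27 counts over the 4 libraries.

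Most tested genes for proteins of the adherens junction rose in TTC28-KO cells. Of 17 genes for adherens junction partners 14 were tested, of which 10 rose, 2 fell and 2 did not pass, and the median log2 fold change was 0.36. The called share was 85.7%, against 45.3% of all tested genes, which were not matched for count. JUP, which encodes plakoglobin, stood at 9.26 and 8.69 FPKM in KO against 2.28 and 2.59 FPKM in WT libraries, a rise of 1.88 (SE 0.0943, edgeR adjusted p = 7.94e-10). CTNNA2, which encodes the neural alpha-catenin, was at 0.552 and 0.571 FPKM in KO against 0.101 and 0.136 FPKM in WT libraries and rose by 2.23. LIMA1, which links the junction to actin, was at 27.0 and 28.2 FPKM in KO against 16.7 and 16.3 FPKM in WT libraries and rose by 0.74. AJUBA, a LIM protein recruited by alpha-catenin, fell by 0.75, to 11.3 and 10.1 FPKM in KO against 17.5 and 18.6 FPKM in WT libraries. The core partners beta-catenin (CTNNB1) and alpha-catenin (CTNNA1) did not pass, at 0.05 and 0.15. CTNND1, which encodes p120-catenin, rose by 0.46 (SE 0.0655, edgeR adjusted p = 3.88e-05).

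Of 20 genes that regulate cadherin genes 14 were tested, of which 4 rose, 2 fell and 8 did not pass, with a median of 0.17. The called share was 42.9%, against 45.3% of all tested genes. TCF4, an E-box factor, was at 1.48 and 1.54 FPKM in KO against 0.89 and 0.967 FPKM in WT libraries and rose by 0.70. TWIST1, an inducer of N-cadherin, was at 4.87 and 3.87 FPKM in KO against 6.87 and 7.44 FPKM in WT libraries and fell by 0.71. TCF3 and CTBP2 rose by 0.25 and 0.23, neither of which passed under the scaling by counts per length, and CTBP2 lost its call without WT replicate 2. Of 15 genes that process cadherins 5 rose, 5 fell and 5 did not pass, with a median of 0.00. Their called share of 66.7% stands against the same 45.3%, which was not matched for count. Among them the sheddase gene ADAM17 was at 4.43 and 4.44 FPKM in KO against 7.31 and 7.34 FPKM in WT libraries and fell by 0.73, while NCSTN of gamma-secretase, ADAM15 and the proprotein convertase gene FURIN rose by 0.50, 0.46 and 0.44.

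All 21 genes listed as regulators of the protocadherin clusters were tested, of which 7 rose, 4 fell and 10 did not pass, with a median of 0.09. The called share was 52.4%, near the 45.3% of all tested genes. CTCF, which binds the promoters and enhancers of the clusters, was at 6.91 and 7.08 FPKM in KO against 9.0 and 9.53 FPKM in WT libraries and fell by 0.41 (SE 0.0653, edgeR adjusted p = 0.000111). NIPBL, the cohesin loader, was at 4.49 and 4.62 FPKM in KO against 5.85 and 6.28 FPKM in WT libraries and fell by 0.42 (SE 0.0689, edgeR adjusted p = 0.00015). EHMT2, a histone H3 lysine methyltransferase, was at 17.1 and 15.8 FPKM in KO against 12.3 and 13.6 FPKM in WT libraries and rose by 0.34, though it did not pass under the scaling by counts per length. DNMT3B, which methylates DNA anew, was at 4.64 and 4.32 FPKM in KO against 3.30 and 3.24 FPKM in WT libraries and rose by 0.45. SMCHD1 did not pass, at -0.12.

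Of 20 other genes of the cadherin superfamily 12 were tested, of which 5 rose, 2 fell and 5 did not pass, with a median of 0.49. The called share was 58.3%, against 45.3% of all tested genes, which were not matched for count. The giant cadherin FAT4 was at 3.0 and 3.39 FPKM in KO against 1.47 and 1.43 FPKM in WT libraries and rose by 1.13 (SE 0.0863, edgeR adjusted p = 7.4e-08). The desmosomal cadherins DSG2 and DSC2 rose by 0.71 and 1.19, DSG2 to 21.8 and 21.6 FPKM in KO against 12.8 and 13.7 FPKM in WT libraries. CLSTN1, which encodes calsyntenin, rose by 0.44. The genes of these lists whose values are printed are those with the smallest p and, for the catenins and SMCHD1, ones chosen after their values were seen.

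**Figure D5:**
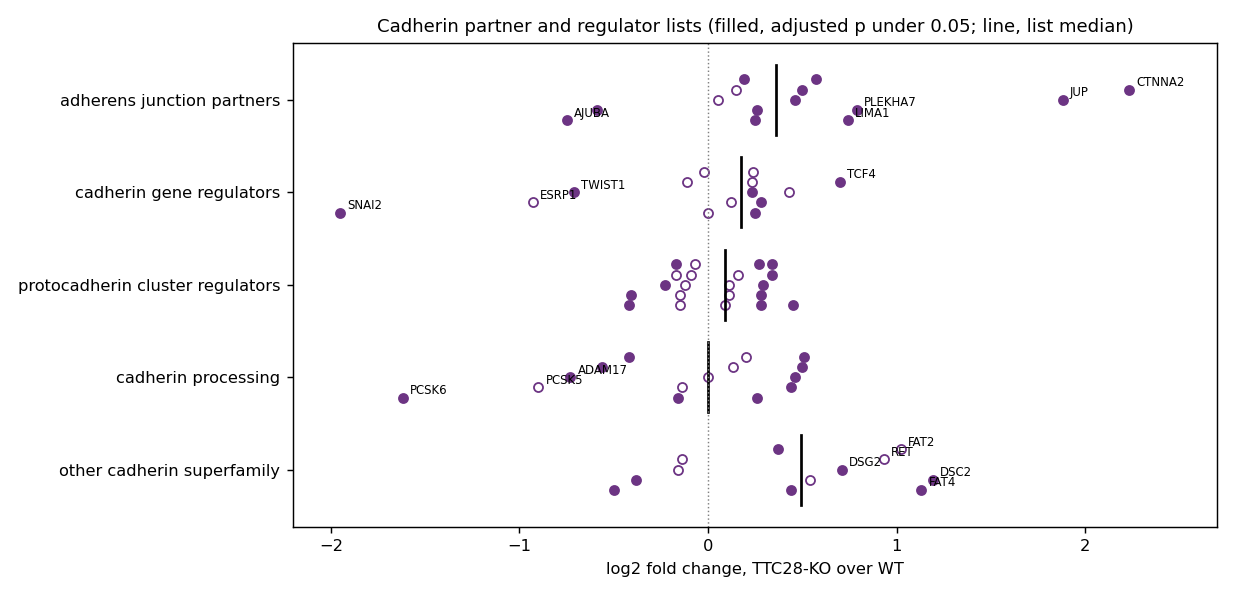
Log2 fold change of TTC28-KO over WT for the tested genes of 5 lists of cadherin partners, regulators and relatives, with filled points for an adjusted p under 0.05 and a line at each list's median. The medians are 0.36 for adherens junction partners, 0.17 for cadherin gene regulators, 0.09 for protocadherin cluster regulators, 0.00 for cadherin processing and 0.49 for the other cadherin superfamily genes.

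Of the 53 tested genes, 19 had an adjusted p under 0.05 in the authors' deposited table. All of these were also called here with the same sign. The 9 genes called here alone were PCDHGB2, PCDHGA10, PCDHGA2, PCDHGA7, PCDHA10, PCDHB13, CDH4, PCDHB7 and CDHR4.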

How the data were processed

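Total RNA of 4 H1299 libraries, 2 of TTC28-KO and 2 of WT cells, was sequenced from an Illumina TruSeq kit, per the labels' protocols. Per the submitters' processing notes, HISAT2 2.0.5 and hg38 were used in alignment. No source used here names the counting tool, its use of strand or the gene annotation. The authors deposited unnormalized counts for each gene, which sum to between 25120500 and 28885443 in a library. They also deposited FPKM per the file headers, which give levels per length here, and a mean normalized signal per group, which was not used. The authors' deposited log2 fold change and deposited p-value are compared by count of calls.

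Here counts were tested with edgeR 4.0.16 (R 4.3.3), quasi-likelihood, two-sided, with TMM factors of 0.9765 to 1.021 and no covariates, over the 16908 genes with at least 40 counts in the 4 libraries. P-values were adjusted by Benjamini-Hochberg over all of them, with a threshold of 0.05. The test was checked on simulated counts. At a mean under 50 counts it recovered 12% of the 2-fold and 66% of the 4-fold changes put in. At higher means it recovered 90% of the 2-fold changes and 36% of smaller ones. It called 2 of 16708 unchanged genes. A gene with few counts that did not pass is therefore not shown to be unchanged. A minimum of 1 FPKM would have dropped long protocadherin genes that have over 100 counts, and is an alternative, as are DESeq2 1.42.0, limma 3.58.1, other scalings and filters, and leaving out each library. Ratios of summed counts have exact Clopper-Pearson intervals, and a count of 0 allows up to 3 counts. Same-numbered libraries were not shown to pair, with a correlation of their deviations of -0.0115. Promoters come from RefSeq on GRCh38.p14, which held 74 of the 94 genes and 47 of the 53 clustered ones. The members, lists and motifs were chosen with earlier results of these data known. Named were CDH1, CDH2, CDH3, CDH4, CDH5, CDH11 and CDH13, the member of highest mean FPKM in each subfamily, up to 24 called members by size of change and up to 4 genes of each list by p. Others were named to account for every member.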

Additional observations from a re-analysis of the deposited data

How the results depend on the processing

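At least 1 FPKM in 2 libraries, which leaves few protocadherins in the test, gave 6 members higher and 0 lower, with 0 alpha, 0 beta and 0 gamma genes lower and 2 gamma genes higher. Limma on log2(FPKM + 0.1) gave 7 members lower and 0 gamma genes lower, and on log2(FPKM + 1) 5 members, 0 beta and 0 gamma genes lower. CDH4, PCDH1, PCDHA3, PCDHA10 and PCDHGA10 lost their calls with both. CDH8, PCDH12, PCDH15, PCDHB7, PCDHB13 and PCDHGA2 lost theirs on log2(FPKM + 1) alone. DESeq2 gave 0 beta genes lower and no filter gave 4. Leaving out 1 library gave 6 to 10 members lower, 3 to 6 alpha genes lower, 1 beta gene lower each time and 0 to 1 gamma genes lower, with the lowest counts of members, alpha and gamma genes without WT replicate 2. Scaling by counts per length gave 2342 genes higher and 6050 lower over all genes, against 3765 and 3900, and moved the median by -0.16. CDHR3, which did not pass, was at -0.22 to 0.06 with 1 library left out, changing sign to 0.06 without TTC28-KO replicate 2 and to 0.04 without WT replicate 1, and stood at 0.22 with the median of its neighbours removed. CDH15, also not past the threshold at -0.10, stood at 0.20 with that median removed. Of the named genes in settings with a test, 48 values no longer passed, 1 newly passed and 610 kept their direction and their side of the threshold, and the cause was not tested. PCDHGB2, which is not among them, lost its call with DESeq2 and without TTC28-KO replicate 2. With the replicate number as a replicate block, though same-numbered libraries were not shown to pair, 16 members were higher and 12 lower, 3948 of all genes were higher and 4143 lower, and no named call changed. The ratios of summed cluster counts kept their direction in every setting run, at 0.417 to 0.556 for alpha, 1.11 to 1.21 for beta and 1.26 to 1.41 for gamma. Depth limits the genes under 100 summed counts, which hold 10 of the 28 calls.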
